A study of Homo sapiens with 4 samples.

Results

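HuR peaks were examined over 6 inflammatory genes whose mRNAs are known for AU-rich elements or for control by the transcription factor NF-κB: PTGS2, IL6, IL8, CCL2, TNFAIP3 and NFKBIA. The genes were taken as a fixed list, and a peak was assigned to a gene when it overlapped the gene's span on the human genome build hg19 by at least 1 bp. The 6 spans together cover 37.7 kb. They held 6 of the 47930 peaks of unirradiated cells and 6 of the 36216 peaks of irradiated cells. All of these lay in IL8 and CCL2, and the other 4 genes had no peak at either dose.

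The cells were WS1, a human skin fibroblast line, kept unirradiated (0 Gy) or exposed to 5 Gy of X-rays. At each dose RNA recovered with HuR was sequenced beside RNA recovered with control immunoglobulin (IgG), giving 4 libraries with 1 in each group. The labels do not give the time between irradiation and harvest, and they give no genetic change in the cells. Each peak list gives the places where the HuR library exceeded the IgG library of its own dose, with the authors' peak score. No group had replicates, so no difference between the doses has a replicate check and no p-value was computed. Read depth is unknown from the lists, which limits every comparison of scores between doses. Expression was not analysed here either. Where scores or lengths differ between doses, a difference in RNA amount and one in recovery with HuR cannot be told apart.

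HuR, the product of ELAVL1, binds U-rich and AU-rich stretches of RNA, often in the 3′ untranslated region, and is known to slow the decay of many short-lived mRNAs. It acts there against proteins such as tristetraprolin, which bind similar elements and speed decay. In fibroblasts, as in many cells, NF-κB switches on genes for chemokines and cytokines after stress, and the half-life of their mRNAs then shapes how much protein is made. PTGS2, IL6 and IL8 are textbook examples of transcripts with such elements.

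Peaks were found over the 2 chemokine genes of the list and not over the prostaglandin enzyme, the interleukin-6 gene or the inhibitors of NF-κB. Whether chemokine genes as a class have peaks was not tested. IL8, listed as CXCL8 in RefSeq, encodes a chemokine that attracts neutrophils, and it carried 3 peaks at 0 Gy and 3 at 5 Gy. CCL2, which encodes a chemokine that attracts monocytes, also carried 3 peaks at each dose. PTGS2 encodes the inducible enzyme of prostaglandin synthesis and had 0 peaks at both doses. IL6 encodes a secreted cytokine and had 0 peaks at both doses. TNFAIP3, a ubiquitin-editing enzyme that restrains NF-κB signalling, and NFKBIA, which holds NF-κB in the cytoplasm, had 0 peaks each at both doses. The same 2 of 6 genes thus had a peak at each dose. For scale, the genome between the first and last peak of each chromosome was cut into stretches of 6287 bp, the mean span of the 6 genes. Of these stretches, 6.48% held a peak at 0 Gy and 5.54% at 5 Gy. They include untranscribed sequence, so they describe how densely the lists cover the genome and not how often an expressed gene has a peak. Absence from a list means that no call passed the authors' threshold. Expression of these genes was not analysed here, so low RNA and little recovery with HuR cannot be told apart.

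IL8 spans chr4:74606223-74609433 (3211 bp) and is transcribed toward higher coordinates. Its peaks lay near the start, in the middle and at the 3′ end of the gene at both doses. Exons, introns and untranslated regions were not assigned, because no hg19 annotation was used. In both genes, a peak's position shows where recovered RNA exceeded the IgG library. Whether it marks a site that HuR contacts was not tested.

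The peak at the start of IL8 ran from 74606256 to 74606569 at 0 Gy (314 bp, score 376.54). At 5 Gy it ran from 74606214 to 74606478 (265 bp, score 591.84), beginning 9 bp before the annotated span. The score at 5 Gy was thus higher over a shorter peak. It exceeded 76.1% of the scores of its own list at 0 Gy and 81.4% at 5 Gy.

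The middle peak of IL8 was the weakest of the 12. It ran from 74607245 to 74607403 at 0 Gy (159 bp, score 147.48), and only 0.563% of the peaks of that list were shorter. At 5 Gy it ran from 74607117 to 74607589 (473 bp, score 75.11), close to the lowest score of that list, 60.01. The 5 Gy call was 2.97 times as long as the 0 Gy call and contained it in full. Of all pairs of peaks that overlapped only each other between the doses, 1.18% had a length ratio as large. Its score ranked above 52.8% of its list at 0 Gy and above 17.5% at 5 Gy.

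The peak at the 3′ end of IL8 was the longest of the gene and the one with the largest difference in score between the doses. It ran from 74608135 to 74609350 at 0 Gy (1216 bp, score 960.66) and from 74607621 to 74609377 at 5 Gy (1757 bp, score 3128.10). Its end moved by 27 bp, to 56 bp before the end of the gene. Its start lay 514 bp nearer to the start of the gene at 5 Gy, so the added length was almost all on the upstream side. The 5 Gy call was 1.44 times as long as the 0 Gy call. Of all pairs of peaks that overlapped only each other, 16.9% had a length ratio as large. Scores from 3100 upward are treated here as one tied top class, because 2481 peaks at 0 Gy and 2000 at 5 Gy share the value 3100 exactly. The 3′ peak of IL8 was below this class at 0 Gy, above 87.4% of its list, and within it at 5 Gy. Without expression values, more IL8 RNA and more recovery with HuR cannot be told apart.

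Among one-to-one pairs, 624 had a 0 Gy score within 10% of that of the 3′ peak of IL8. Their median score at 5 Gy was 582.61, with quartiles of 349.90 and 880.61. Of the 624, 3 reached the top class at 5 Gy (0.481%), IL8 itself included. The start peak of IL8 was also on the high side of pairs like it. Of 996 pairs with a 0 Gy score within 10% of its own, 7.83% scored as high at 5 Gy, and the median was 213.92. The middle peak was on the low side, with 17.8% of 1333 such pairs scoring as low. The pairs were alike in 0 Gy score only and were not chosen by length. These shares describe where the peaks stood in 1 pair of lists and are not tests.

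**Figure D1:**
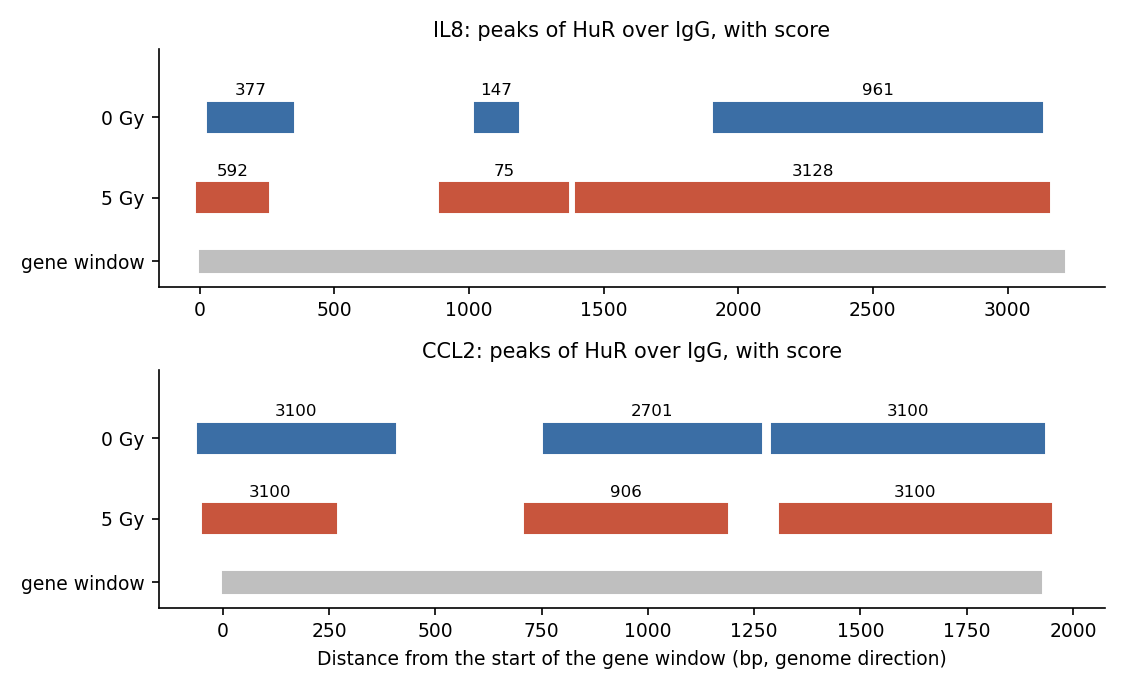
Peaks of IL8 (top) and CCL2 (bottom) at 0 Gy (blue) and 5 Gy (red), placed by their distance in bp from the start of the gene's span (grey bar), with each peak's score above it. Each gene has 3 peaks at both doses; the last IL8 peak is 1216 bp long at 0 Gy and 1757 bp at 5 Gy, whereas the last CCL2 peak is 640 and 639 bp.

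CCL2 spans chr17:32582296-32584220 (1925 bp) and is also transcribed toward higher coordinates. Of its 3 peaks, the first and the last were in the top score class at both doses, a class that holds 5.35% of all peaks at 0 Gy and 5.72% at 5 Gy. The 3 peaks were 464 to 640 bp long at 0 Gy, where the median of the list was 448 bp, and 312 to 639 bp long at 5 Gy, where it was 559 bp.

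The first CCL2 peak ran from 32582237 to 32582700 at 0 Gy (464 bp, score 3100) and from 32582250 to 32582561 at 5 Gy (312 bp, score 3100). It began 59 bp before the annotated span at 0 Gy and 46 bp before it at 5 Gy. The shorter call at 5 Gy lay wholly inside the 0 Gy call and ended 139 bp earlier. The 0 Gy call was close to the median length of its list, and the 5 Gy call was longer than 12.9% of its list. Of the 24979 peaks of at most 464 bp at 0 Gy, 0.789% were in that class, as were 26 of the 4718 peaks of at most 312 bp at 5 Gy (0.551%).

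The last CCL2 peak nearly coincided between the doses. It ran from 32583587 to 32584226 at 0 Gy (640 bp, score 3100) and from 32583606 to 32584244 at 5 Gy (639 bp, score 3100). Its start moved by 19 bp and its end by 18 bp. The peak reached 6 bp past the annotated end of the gene at 0 Gy and 24 bp past it at 5 Gy. Because both scores are in the tied top class, this pair and the first pair have no order between the doses.

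The middle CCL2 peak ran from 32583052 to 32583560 at 0 Gy (509 bp, score 2700.82) and from 32583008 to 32583481 at 5 Gy (474 bp, score 906.07). It was the only CCL2 peak outside the top class, at both doses, and the only one with an ordered difference. Its score ranked above 94.0% of the list at 0 Gy and above 86.1% at 5 Gy. Of 366 pairs with a 0 Gy score within 10% of its own, 11.7% scored as low at 5 Gy, and their median at 5 Gy was 1854.11.

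All 6 peaks at 0 Gy matched a peak at 5 Gy by at least 1 bp, and all 6 at 5 Gy matched one at 0 Gy. With so few peaks, the exact (Clopper-Pearson) 95% interval of either share starts at 54.1% and covers counting error only; peaks of 1 gene share their transcript and are not independent. Over the whole lists, 58.1% of the 0 Gy peaks and 73.0% of the 5 Gy peaks had a match. Both values lie within that interval, but with 6 dependent peaks this cannot tell whether the shares differ. A match was also the usual case at high scores. Of the peaks scoring at least 376.54 at 0 Gy, the score of the start peak of IL8, 97.4% had a match at 5 Gy, and of those scoring at least 591.84 at 5 Gy, 99.8% had a match at 0 Gy. All peaks of the 2 genes but the middle one of IL8 score at least this high. Apart from that middle peak, the matches are therefore close to what other peaks of such scores show. The middle peak of IL8 scores lower and is not covered by these shares. Each of the 6 formed a pair with only 1 peak of the other list. In the 4 pairs with an order, the percentile rank of the score was higher at 5 Gy in 2 (the start and 3′ peaks of IL8, by 5.2 and 6.88 points) and lower in 2. It differed by -35.3 points in the middle peak of IL8 and by -7.95 points in the middle peak of CCL2. The median over all 18079 ordered pairs was -4.91 points, with 5% of pairs at or below -46.8 and 5% at or above 30.9. All 4 values lie inside that range. Of the ordered pairs, 21.5% had a rank gain as large as the start peak of IL8 and 19.5% as large as its 3′ peak. A rank change as low was found in 10.5% for the middle peak of IL8 and in 42.2% for that of CCL2. With scores of 3100 and above tied, no rank at 5 Gy exceeds 94.3%. From 76.1% and 87.4% at 0 Gy, the start and 3′ peaks of IL8 could not have passed 30.9 points. For these 2 peaks, not passing the upper end was therefore fixed in advance and shows nothing about them. Near the top of the lists a large difference in score is a small difference in rank.

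**Figure D2:**
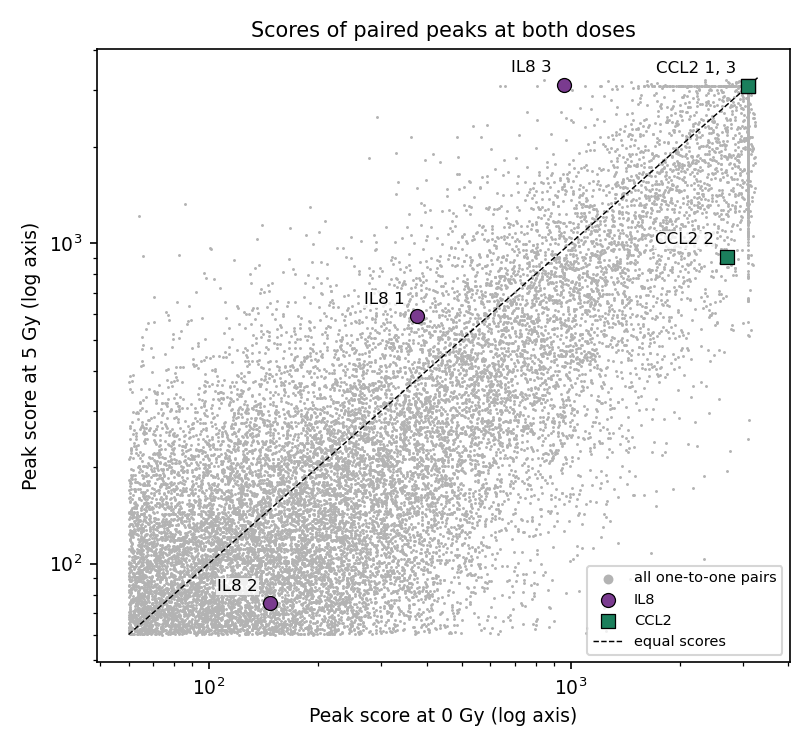
Score at 5 Gy against score at 0 Gy, both on log axes, for all 19750 one-to-one pairs of peaks (grey) and for the numbered pairs of IL8 (circles) and CCL2 (squares), counted from the start of the gene. The last IL8 pair (960.66 and 3128.10) lies above the line of equal scores and the middle CCL2 pair (2700.82 and 906.07) below it; the first and last CCL2 pairs share 1 point at 3100.

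The sequence under peaks differed between the genes in opposite directions. Peaks of the whole list were longer at 5 Gy, with a median of 559 bp against 448 bp at 0 Gy. In IL8, 1689 bp (52.6% of the gene) lay under a peak at 0 Gy and 2486 bp (77.4%) at 5 Gy. Of this, 1598 bp was covered at both doses, 91 bp at 0 Gy only and 888 bp at 5 Gy only. In CCL2, 1548 bp (80.4%) lay under a peak at 0 Gy and 1355 bp (70.4%) at 5 Gy. Here 1311 bp was covered at both doses, 237 bp at 0 Gy only and 44 bp at 5 Gy only. Under peaks of neither dose lay 19.7% of IL8 and 17.3% of CCL2. When the genome was cut into stretches as long as IL8, those with a peak were covered as much as IL8 in 17.0% of cases at 0 Gy and 8.67% at 5 Gy. For stretches as long as CCL2 the shares were 13.1% and 19.9%. Stretches cut at fixed steps do not follow gene borders, so these shares set a scale and are no test.

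Each gene was then divided into 3 equal parts along its length. In the last part, which holds the 3′ end, coverage was nearly complete in both genes at both doses. It was 92.3% at 0 Gy and 94.8% at 5 Gy in IL8, and 98.8% and 95.8% in CCL2. The difference in IL8 lay in the middle part, with 31.7% under a peak at 0 Gy and 97.1% at 5 Gy. Part of this 5 Gy coverage came from the middle peak, whose score of 75.11 is close to the list's lowest, 60.01. In the first part of IL8 the values were 33.8% and 40.4%. In CCL2 the first part differed most, with 63.2% at 0 Gy and 41.5% at 5 Gy, and the middle part had 79.3% and 73.8%.

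**Figure D3:**
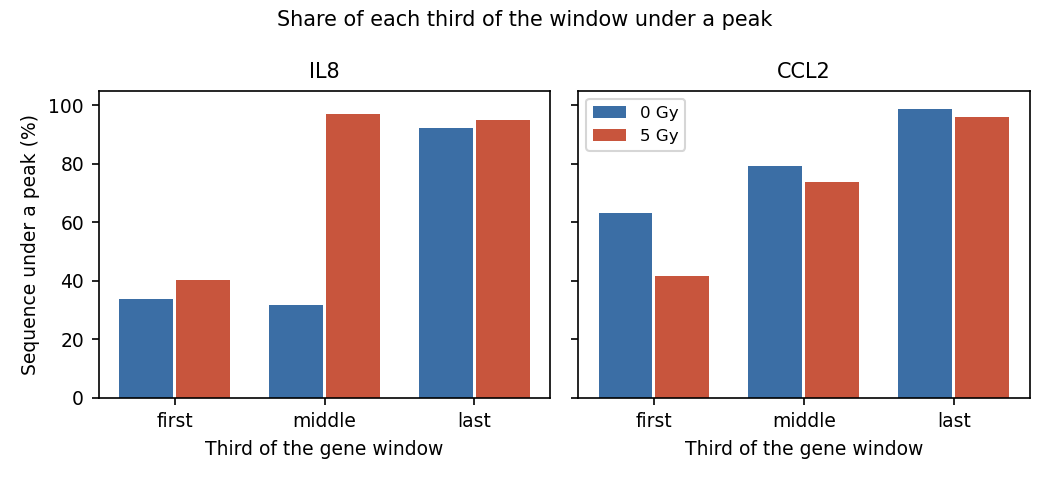
Share of sequence under a peak (%, bars from 0) in the first, middle and last of 3 equal parts of IL8 (left) and CCL2 (right), at 0 Gy (blue) and 5 Gy (red); each bar is 1 peak list with no error bar. The last part is between 92.3% and 98.8% covered in every case, and the middle part of IL8 goes from 31.7% at 0 Gy to 97.1% at 5 Gy. Part of the latter is the low-scoring middle peak.

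The gaps between the peaks were short where coverage was high. In IL8 the middle and last peaks were separated by 731 bp at 0 Gy and by 31 bp at 5 Gy, whereas the first gap was 675 bp and 638 bp. In CCL2 the middle and last peaks were separated by 26 bp at 0 Gy and by 124 bp at 5 Gy, and the first gap was 351 bp and 446 bp. The number of peaks in a gene thus depends on how the caller divides a run of signal. When peaks within 1 kb were joined, each of these genes became a single peak at both doses.

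The peaks of IL8 and CCL2 had no other peak within 200 kb of the gene. IL8 has CXCL6, another chemokine gene, as its next protein-coding neighbour on the higher-coordinate side in RefSeq. The nearest peak on that side of IL8 lay 252.0 kb away at both doses, and on the other side it lay 479.9 kb away at 0 Gy and 480.9 kb at 5 Gy. The peak at 252.0 kb scored 1330.66 at 0 Gy and 2523.9 at 5 Gy. Its gene was not assigned, so whether it lies in another chemokine gene was not examined. CCL2 has CCL7, also a chemokine gene, as its next neighbour on the higher-coordinate side. The nearest peak on that side of CCL2 lay 732.3 kb away at 0 Gy and 725.8 kb at 5 Gy, and on the other side 215.3 kb away at both doses. PTGS2, which has no peak of its own, likewise had none within 200 kb at either dose. How often peaks of the whole lists lie this far from others is not given here.

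The 4 genes without a peak lay at different distances from the nearest call. PTGS2 was the most isolated of the 4, with its nearest peak 392.2 kb away at 0 Gy and 346.1 kb away at 5 Gy. For TNFAIP3 the nearest peak was 160.3 kb away at 0 Gy and 160.5 kb at 5 Gy. For IL6 it was 87.2 kb away at 0 Gy and 82.0 kb at 5 Gy. NFKBIA had the closest one, 25150 bp away at 0 Gy (35899110 to 35899825 on chromosome 14, score 767.28) and 25035 bp at 5 Gy (35898995 to 35899832, score 401.82). It was matched between the doses and lies on the side of the start of NFKBIA, which is transcribed toward lower coordinates. It is no peak of NFKBIA under the rule, and its gene was not assigned.

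**Figure D4:**
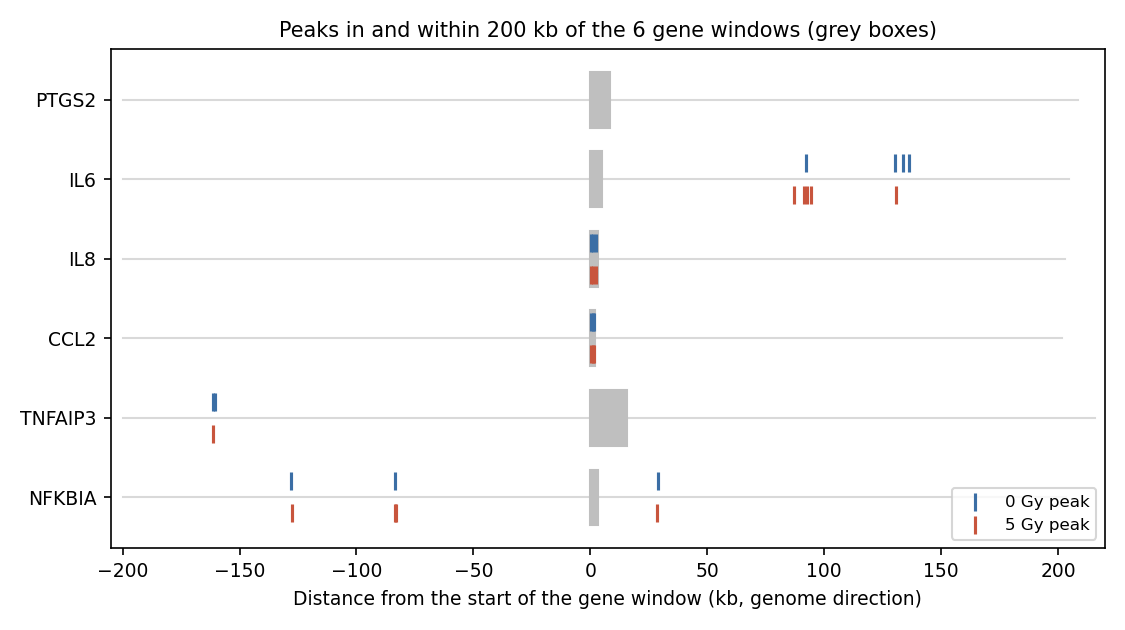
Centres of peaks at 0 Gy (blue ticks, upper) and 5 Gy (red ticks, lower) in each of the 6 genes (grey boxes) and within 200 kb on either side, by distance in kb from the start of the gene's span. IL8 and CCL2 have peaks inside the gene and none outside it, PTGS2 has none at all, and IL6, TNFAIP3 and NFKBIA have peaks only outside the gene.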

How the data were processed

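The deposited values were 2 peak lists, 1 per dose, each of a HuR library over the IgG library of the same dose. The submitters' processing notes name cutadapt 1.9.1, Bowtie2 2.2.4 and the build hg19. Peak names begin with MACS. The names of the deposited lists carry the settings 1e-06, 10 and 30 without saying what they are; 1e-06 has the form of a p-value limit. The caller's version was not found in these sources. Column 5 is the peak score the authors deposited, with no unit stated. Its lowest value is 60.00, and minus 10 times the log10 of 1e-06 is 60. The score thus has the form of a significance value and is not to be read as fold enrichment. The lists hold no counts, strand or gene names.

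Starts were converted to count from 1. Overlap of at least 1 bp was computed in Python 3.11.15 (numpy 2.4.6, pandas 2.3.3, scipy 1.17.1), checked on simulated data, and gave the same number of matched peaks as bedtools 2.31.1. Percentile ranks are the share of a list with a lower score, scores of 3100 and above being tied. Gene symbols and neighbours came from RefSeq (GRCh38, order only), and strand from the same source except for CCL2, where it is textbook knowledge. All 6 genes are named, by rule, with every peak. The genes and comparisons were chosen with earlier results of these data known. A list of other NF-κB pathway genes, cell type markers and peak sequences need an hg19 annotation or genome and were not analysed here. Comparisons with pairs of like score, fixed stretches and parts of genes were added after the values were seen.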

Additional observations from a re-analysis of the deposited data

How the results depend on the processing

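Of 70 values recomputed under other settings, 8 moved and 0 reversed. The other 62 were equal to the reported value or within the tolerance set for them: 1.5 times for counts and for fixed stretches, the 95% interval of counting error for shares of matched peaks, and the same sign for differences in rank. Some of the 62 could not have moved. A score minimum cannot raise the coverage of a gene without a peak, and an allowed gap cannot raise a complete share. The interval for matched peaks is wide and takes them as independent. The tally is therefore no measure of stability. The number of genes with a peak was 2 at each dose with the span extended by 1 or 5 kb, with at least 50% of the peak inside the span, and at scores of at least 100 or of at least the list's median. Joining peaks within 1 kb gave 2 peaks at each dose in place of 6. Scores of at least 100, or of at least the list's median, removed the middle IL8 peak at 5 Gy, which left 5 peaks at that dose, and its coverage of IL8 became 62.7% under both. With spans extended by 1 kb, coverage at 0 and 5 Gy was 32.4% and 47.9% in IL8 and 41.1% and 36.3% in CCL2, because the added sequence held no further peak. The share of matched peaks was 83.3% at each dose when 50% of each peak had to overlap, the middle IL8 pair being lost, and 83.3% at 0 Gy under either score minimum. Cutting the genome from another origin, chosen after seeing the data, gave 6.49% and 5.55% with a peak. No paired analysis was possible because a single library stands for each group. With no replicates and unknown depth, differences in score between the doses have no error estimate.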
